A study of Mus musculus with 2 samples.

Results

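Neural cells of the foregut were examined from embryo to adult. The cells were those that the depositors' cell table labels Neural. They number 419 beside 7389 cells of all other labels (5.37% of the total), and make up exactly 1 of the numbered clusters of that table. All mice were C57BL/6 wild type, and single-cell RNA sequencing was run on dissociated esophagus, stomach and the gastroesophageal squamocolumnar junction between them (GE-SCJ, whose tag reads Junction), taken on embryonic day 15 (E15), on embryonic day 19 (E19), from pups on day 2 after birth and from adults of 8 weeks. A lipid-anchored sample tag marked the region and stage of each cell. The labels give 6 mice at E15, 2 at E19, 2 pups and 3 adults, whereas the methods speak of 3 mice combined, and no cell carries the name of its mouse. Each combination of region and stage is therefore 1 pooled sample without replicates, no test was possible, and every interval is an exact 95% interval that covers counting error only. Adult stomach was not analysed here.

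Neural crest cells enter the foregut of the embryo, migrate along it and give rise to the neurons and glia of the enteric nervous system. The receptor tyrosine kinase Ret, the endothelin receptor Ednrb and the transcription factor Sox10 are known regulators of these progenitors. Neurons take on the RNA-binding Elavl proteins and neuronal tubulin, while glia keep Sox10 and gain S100b. Schwann cells, the myelin-forming glia of extrinsic nerves such as the vagus, come from the same crest and share Sox10 with enteric glia.

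The 3 markers of the label were present. Sox10, a neural crest and glial transcription factor, had a unique molecular identifier (UMI, 1 counted RNA molecule) in 290 neural cells. Elavl4, a neuronal RNA-binding protein, had one in 132 cells and S100b, a glial calcium-binding protein, in 197 cells. Together 397 of the 419 cells held a UMI of at least 1 of the 3. Summed over the neural cells, Sox10 stood at 238 CPM (UMIs of the gene per 1000000 UMIs of the cells summed) against 0.538 CPM in all other labels. Because the cluster was formed from these same counts, such differences describe the label and test nothing.

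The 419 cells carried 3745056 UMIs. They numbered 88 in E15 esophagus, 42 in E15 GE-SCJ, 72 in E15 stomach, 11 in E19 esophagus, 74 in E19 GE-SCJ, 60 in E19 stomach, 24 in pup esophagus, 15 in pup GE-SCJ, 20 in pup stomach, 12 in adult esophagus and 1 in adult GE-SCJ. Their share ran from 13.6% of the cells of E15 esophagus (95% exact binomial interval 11.04 to 16.46) to 1.11% in E19 esophagus (0.557 to 1.98) and 0.699% in adult GE-SCJ (0.0177 to 3.83). Shares depend on how each tissue was dissociated, so they are given as the makeup of these samples. The median depth of a neural cell was 8480, 10395.5 and 12098.5 UMIs in esophagus, GE-SCJ and stomach at E15, 6045, 7744.5 and 7396 at E19 and 3898, 4607 and 4108 in pups, lower at each later stage of a region. It was 1787 UMIs in adult esophagus, and the 1 cell of adult GE-SCJ held 6862. A gene at 0 UMIs can therefore stand as high as 3.61 CPM in E15 esophagus, 29.2 CPM in pup esophagus and 130 CPM in adult esophagus, taking 3 UMIs as the limit that a count of 0 allows. In summed counts, fewer cells of a kind and less RNA of a gene per cell cannot be told apart. The 7 groups of at least 20 neural cells, with 380 cells, entered comparisons.

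**Figure D1:**
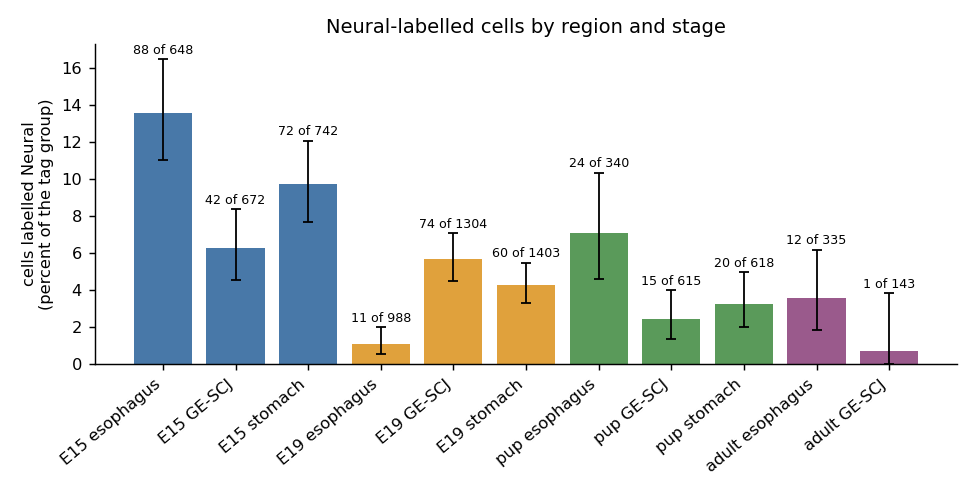
Share of cells labelled Neural (percent of the cells of a region and stage, vertical axis) in the 11 groups, with bars starting at 0 and lines showing exact 95% binomial intervals for counting error. The share is 13.6% in E15 esophagus and 9.70% in E15 stomach, and at most 7.06% in every other group.

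Against all other labels, 1073 of the 6191 genes with at least 100 UMIs (17.3%) were at least 2-fold higher in the neural cells. Among genes seen in at least 10% of the neural cells, neural crest transcription factors stood near the top. Foxd3, a crest and glial transcription factor, was at 381 CPM in neural cells, a log2 ratio of 9.44 over the other labels, and was seen in 312 cells. The homeobox genes Phox2a, Dlx2 and Dlx1 had log2 ratios of 9.05, 8.96 and 8.66. Neuronal genes in the same ranking were Elavl3 (8.88), the tubulin Tubb3 (8.37), the stathmin Stmn3 (8.53) and Elavl4 (8.02). Glial genes were Sox10 (8.77), the fatty-acid binding protein Fabp7 (8.75), the cadherin Cdh19 (8.53) and the connexin Gjc3 (8.36). Gpr17 (8.78), Gm12688 (8.72), Cmtm5 (8.36), Zfp804a (7.64) and Hoxd3 (7.53) were named by the same rule. The ratios pool groups of different depth and stage. The rule asked for a ratio above 0 in each of the 7 groups, which the pseudocount gives to a gene at 0 UMIs, and 9 of the 17 genes (Phox2a, Elavl3, Gpr17, Dlx1, Stmn3, Tubb3, Elavl4, Zfp804a and Hoxd3) had 0 UMIs in the neural cells of pup esophagus. The other 8, Foxd3, Dlx2, Sox10, Fabp7, Gm12688, Cdh19, Gjc3 and Cmtm5, had UMIs in every group. With the 7 groups averaged at equal weight the ratios of 10 of the 17 moved beyond their counting intervals, such as Phox2a to 7.22 and Stmn3 to 6.85, while Foxd3 stood at 9.29 and Sox10 at 8.68.

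Taken by list, all 18 enteric glia genes were higher in neural cells, with a summed level of 4980 CPM against 533 CPM elsewhere. Immune cells reached 6735 CPM on the same list, of which Apoe, a lipid carrier of glia and macrophages, made up 6696 CPM, against 1117 CPM in neural cells. Of 26 neuron genes 25 were higher, and their sum was 3014 CPM against 89.0 CPM. Of 29 regulators of crest and neurogenesis 25 were higher and 2 lower, and of 15 Schwann and myelin genes 10 were higher and 3 lower. Of all 17182 genes with at least 20 UMIs over all cells, 16.9% were at least 2-fold higher in neural cells and 18.7% lower.

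Signalling genes divided by role. Of the 15 receptors for glial cell line-derived neurotrophic factor (GDNF), endothelin, neuregulin and neurotrophins, 8 were higher and 2 lower in neural cells, among them Ret at 98.8 CPM against 0.778 CPM, its co-receptor Gfra1 at 236 CPM against 13.98 CPM, Ednrb at 1068 CPM against 78.7 CPM and the neuregulin receptor Erbb3 at 190 CPM against 37.4 CPM. Of the 13 measured genes on the ligand list, which also holds the endothelin-converting enzyme Ece1, 1 was higher (Nrg3) and 9 were lower. Gdnf, the ligand of Ret, had 0 UMIs in the 419 cells and 7.14 CPM elsewhere, and Edn3, the ligand of Ednrb, stood at 1.07 CPM against 11.1 CPM.

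Markers of other cell types were mostly low. All 8 fibroblast genes were lower than in other labels, but their sum was still 1933 CPM (9431 CPM elsewhere), led by the collagen Col3a1 at 737 CPM. The summed level of the list moved with stage, from 308 CPM in E15 stomach and 1801 CPM in E15 esophagus to 8674 and 10795 CPM in the same regions of pups. The 9 immune genes summed to 23.2 CPM with Ptprc and Cd52 at 0 UMIs, the 9 epithelial genes to 288 CPM and the 8 smooth muscle genes to 212 CPM, each below other labels. The 12 striated muscle genes summed to 21.1 CPM against 131 CPM elsewhere, led by Des at 9.35 CPM. Of these Myod1, Myog, Myf5 and Pax7 had 0 UMIs, but they stood at no more than 0.27 CPM elsewhere, a level not detectable at this depth, and Myh3 had 7 UMIs (1.87 against 0.24 CPM). Hemoglobin RNA was uneven: 4249 of the 5200 UMIs of 5 erythroid genes in E19 GE-SCJ (81.7%) lay in 2 of 74 cells, and 522 of 564 in pup stomach (92.6%) in 2 of 20 cells. The part that these other sources play in the comparisons was not tested.

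Genes of both arms of the lineage were counted in each cell. UMIs of at least 2 glia genes were found in 393 cells (93.8%, 91.0 to 95.9) and of at least 2 neuron genes in 307 cells (73.3%, 68.8 to 77.4), and 281 cells (67.1%) held both. In immune cells, of similar median depth (8266.5 against 7900 UMIs), the same limits were met by 21.2% and 6.21%, and in endothelial cells (9365 UMIs) by 9.55% and 30.6%. This gives the background of free RNA and broadly used genes in these classes only. Stroma, muscle and epithelium were not counted this way. Over all other labels Apoe had a UMI in 39.7% of cells and Matn2 in 30.3%. At least 3 genes of the 2 lists together were seen in 3485 cells of any label, 418 of them Neural. After each cell was thinned to 2000 UMIs, which left 407 neural cells, the shares were 79.1% for glia genes, 37.6% for neuron genes and 18.2% for both, so that the share holding both depends on depth. A stricter limit of 8 neuron genes was met by 78 neural cells and by 0 immune and 0 endothelial cells.

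**Figure D2:**
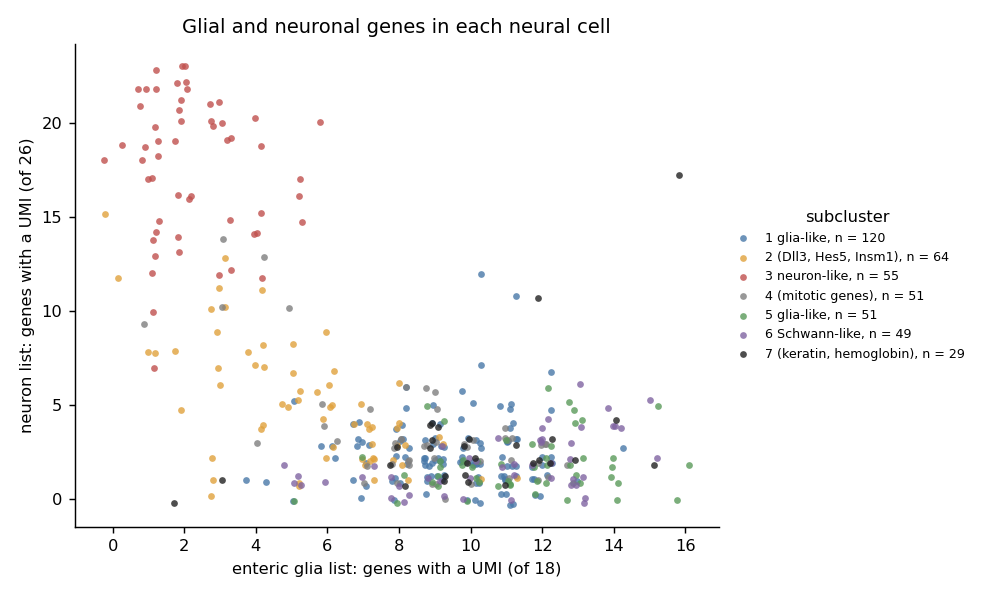
Number of glia-list genes (horizontal axis, of 18) and neuron-list genes (vertical axis, of 26) with a UMI in each of the 419 neural cells, 1 point per cell with a small random shift, coloured by subcluster. Subcluster 3 sits at many neuron genes (median 19) and few glia genes (median 2), subcluster 2 lies between (medians 4.5 and 6), and the other subclusters have medians of 9 to 12 glia genes.

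Clustering of the 419 cells gave 7 subclusters. Their leading genes describe how they were formed and are not tests. Subcluster 3, neuron-like, held 55 cells with Elavl4 in all 55 (1996 CPM), Stmn2, a growth-cone stathmin, at 2039 CPM, and Sox10 in 3. It was led by Stmn4, Vip, Snap91, Map6, Tac1, Stmn2, Scn3a, Dcx, Rtn1 and Myt1l, and all 55 cells were called G1 by the depositors. Phox2a reached 614 CPM there and at most 108 CPM in the others, and the nicotinic receptor subunit Chrna3 148 CPM in 44 cells. Transmitter genes were seen in few of these cells. Vip, the vasoactive intestinal peptide, had 50 UMIs in 11 cells, Nos1, the neuronal nitric oxide synthase, 65 UMIs in 7 cells, Gal, the peptide galanin, 79 UMIs in 6 cells, and Tac1, the substance P precursor, 114 UMIs in 3 cells. Acetylcholine synthesis by Chat was represented by 6 UMIs in 4 neural cells, all of E15 stomach.

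Subcluster 2, with 64 cells, has no name here. Its leading genes were Cck, Bcl11b, Dll3, Pdzrn4, Miat, Hes5, Insm1, Rbm24, Gadd45g and Hes6, of which Dll3, Hes5 and Hes6 belong to the Notch pathway and Insm1 is a factor of newly formed neurons. Insm1 was 313 CPM in 53 of the 64 cells, against 97.6 CPM in the neuron-like cells and 54.2 CPM in subcluster 1. Elavl4 (320 CPM) and Sox10 (124 CPM) both lay between their levels in subclusters 1 and 3. Its leading place for Cck rests on 57 UMIs in 2 cells.

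Subclusters 1 and 5 were glia-like. Subcluster 1, 120 cells, had a median of 10 glia genes per cell, and Fabp7 at 3215 CPM in all 120 cells. It was led by Zpld1, Crtac1, Nckap5, Ccn2, Crym, Heyl, Npy, C1ql1, Kank1 and Eln. Subcluster 5, 51 cells, came only from pups (49) and adult esophagus (2), and had Apoe at 5573 CPM, the ectonucleotidase Entpd2 at 576 CPM and 0 UMIs of Insm1 and of Ret. Its leading genes were Fgl2, Cxcl1, Col15a1, G0s2, Col5a3, Zfp36, Ramp1, Socs3, Atf3 and Scd1, several of them immediate early or stress-response genes, and the immediate early and heat shock list summed to 26745 CPM there against 12367 CPM in subcluster 1. The fibroblast list summed to 7968 CPM in subcluster 5, against 322 to 697 CPM in subclusters 1 to 4, and its part in these values was not tested. Gfap, an intermediate filament of mature glia, had 19 UMIs in 9 cells of subcluster 5 and 13 UMIs in the rest.

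Subcluster 6, Schwann-like, held 49 cells with the myelin and lymphocyte protein Mal at 729 CPM, the myelin basic protein Mbp at 857 CPM and desert hedgehog, Dhh, at 143 CPM. Its Schwann and myelin list summed to 6109 CPM, and its fibroblast list to 9282 CPM, led by Col3a1 at 3805 CPM and Col1a2 at 3506 CPM. The part of fibroblast RNA in this subcluster was not tested. Its leading genes included Ecrg4, Reln, Sostdc1, Lgi1, Egfl8, Sparcl1, Mal, Npr3 and Maf. The cells came from E15 esophagus (15), E19 GE-SCJ (17), pup esophagus (4), pup GE-SCJ (3) and adult esophagus (10). None came from the 152 neural cells of stomach. Within the subcluster, Mbp was 387 CPM (292 to 502) in E15 esophagus, 835 CPM (690.2 to 1002) in E19 GE-SCJ, 747 CPM (358 to 1374) in pup esophagus, 341 CPM (92.8 to 872) in pup GE-SCJ and 5019 CPM (4060 to 6135) in adult esophagus. The adult interval lay above the other 4, which overlap in part.

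Subcluster 4 was led by division genes, with Plk1, Cdca2, Hist1h1a, Pimreg, Hist1h3c, Mxd3, Hist1h1b, Kif2c, Nusap1 and Cenpf in the lead and 35 of 51 cells called G2M. Its members kept a median of 9 glia genes and 3 neuron genes. Subcluster 7, 29 cells, was led by Gast, Hbb-bt, Pcsk2, Krt14, Krt5, Lgals7, Hpgd, Hba-a1, Hbb-bs and Hba-a2, genes of stomach endocrine cells, squamous epithelium and red cells. Gast lay in 4 of its cells and Krt5 in 2, while the median of glia genes was 10, so it stays unnamed. Where the cells of a subcluster are counted by group, the counts are descriptions, because the genes that form the subclusters differ with stage. No difference in subcluster size between groups was tested.

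**Figure D3:**
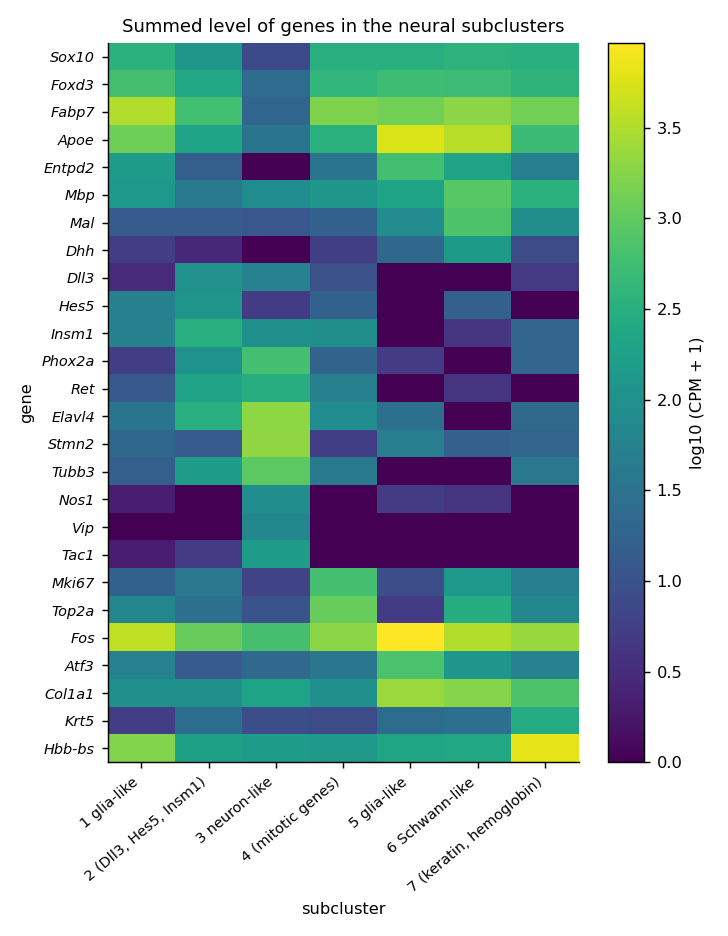
Summed level of 26 genes (vertical axis) in the 7 neural subclusters (horizontal axis), coloured by log10 of CPM plus 1. Read along a gene, Elavl4 peaks in subcluster 3 (1996 CPM), Insm1 in subcluster 2 (313 CPM), Mal in subcluster 6 (729 CPM) and Apoe in subcluster 5 (5573 CPM).

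Stage was compared within a region. The question was how the neural cells differ along development, and the neuron list was summed first. In stomach it was lower at each later stage, with 4734, 1444 and 582 CPM at E15, E19 and in pups, and in GE-SCJ it was 5227 and 2042 CPM at E15 and E19 and 713 CPM in the 15 pup cells. In esophagus it was 2302 CPM at E15, higher in the 11 cells of E19 (3939 CPM) and 379 CPM in pups. The pup GE-SCJ and E19 esophagus cells, fewer than 20 each, went into no comparison of genes. With at least 8 neuron genes as the limit, 58 of 202 neural cells at E15 qualified (28.7%, 22.6 to 35.5), 20 of 145 at E19 (13.8%, 8.63 to 20.5), 0 of 59 in pups and 0 of 13 in adults. A count of 0 allows up to 5.08% in pups and 23.1% in adults, and the median depth over the same 4 stages was 9895.5, 7410, 4331 and 1796 UMIs. Elavl4 stood at 354, 840 and 738 CPM in esophagus, GE-SCJ and stomach at E15, at 389, 340 and 243 CPM at E19, and at 0, 13.98 and 60.2 CPM in pups, where 7 UMIs lay in 5 cells. Tubb3 followed with 171, 346 and 366 CPM at E15, 194, 122 and 139 CPM at E19 and 1 UMI in pups. CPM divides by depth, and on that scale both genes were lower in pups than at E15 and E19 in each region.

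The starts of Elavl3 and Elavl4 share a short motif, which none of the 6 windows of Elavl2 holds, shown here because bHLH factors are known to bind the E-box CAGCTG (the motif is its own reverse complement, printed in capitals). Both are the 250 bases upstream of a start site, on the minus strand, from RefSeq on GRCm38.p6. Elavl3 lies on chr9:22015005-22052023 and its window on chr9:22052024-22052273. Elavl4 lies on chr4:110203722-110351909 (gene positions from GENCODE M21 on the same build), and of its 4 annotated starts 2 overlapping windows hold the motif, of which chr4:110287528-110287777 is printed.
Elavl3: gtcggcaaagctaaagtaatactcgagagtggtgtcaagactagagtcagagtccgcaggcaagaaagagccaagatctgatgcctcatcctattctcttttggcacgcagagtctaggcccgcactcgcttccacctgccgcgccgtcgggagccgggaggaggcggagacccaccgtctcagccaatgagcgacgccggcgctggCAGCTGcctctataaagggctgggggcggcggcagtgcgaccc
Elavl4: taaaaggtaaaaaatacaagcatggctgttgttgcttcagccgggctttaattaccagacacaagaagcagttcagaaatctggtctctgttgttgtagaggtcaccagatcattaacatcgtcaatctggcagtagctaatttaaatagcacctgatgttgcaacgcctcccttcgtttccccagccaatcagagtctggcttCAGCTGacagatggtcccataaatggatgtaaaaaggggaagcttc
CAGCTG stands in 14.7% of all 27025 genes with such a window and in 3 of the 13 genes matched among the 20 that met the naming rule, the other being Cmtm5. The letters ACAAAG, a SOX-type motif searched on both strands, stand in 18.6% of genes and in 2 of the 13, Stmn3 and Hoxd3. A match is a description of the sequence and shows neither binding nor a cause.

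E19 was set against E15 in GE-SCJ and in stomach, and genes were named by the smaller of their ratios in the 2 regions. In GE-SCJ 47 of 1940 genes were at least 2-fold lower (2.42%) and 158 higher (8.14%), and in stomach 95 of 2544 were lower (3.73%) and 81 higher (3.18%). Of the neuron list 8 of the 10 genes measured in GE-SCJ and 13 of the 14 measured in stomach were lower, with medians of -1.54 and -1.62 (all genes -0.11 and -0.08, and the same list in all other labels -0.54 and -0.67). Stmn2 was 960 CPM at E15 and 224 CPM at E19 in GE-SCJ (log2 ratio -2.09, -2.37 to -1.82) and 724 and 114 CPM in stomach (-2.64, -3.07 to -2.25). Phox2a was lower by log2 ratios of -2.08 and -2.24 and the zinc finger gene Bnc2 by -2.21 and -2.45. The other 7 leading genes, Crmp1, Tagln3, Basp1, the neuron-list genes Rtn1 and Elavl3, the receptor gene Gpr22 and the channel subunit gene Cacna2d1, had log2 ratios between -1.56 and -2.91.

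The glia list went the other way, with 7 of 11 measured genes higher at E19 in GE-SCJ and 6 of 10 in stomach and none lower (medians 1.51 and 1.29). Among cells with at least 2 glia genes and fewer than 2 neuron genes, 6 to 18 cells a group, these medians were 1.17 and 0.46. Apoe was 230 CPM at E15 and 1535 CPM at E19 in GE-SCJ (log2 ratio 2.73, 2.43 to 3.03) and 158 and 1230 CPM in stomach (2.95, 2.69 to 3.22), while in all other labels its ratios were -0.28 and 0.32. Within immune cells, where Apoe is also high, it was 3747 CPM at E19 and 6414 CPM at E15 in GE-SCJ and 4705 and 5016 CPM in stomach. The amount of free Apoe RNA in each sample was not measured, and its part in these ratios was not tested. The heat shock gene Cryab, also on the glia list, had ratios of 1.91 and 2.47, and Egr2, a regulator of myelin genes, 2.24 and 1.95. In Schwann and myelin genes 5 of 6 measured were higher in GE-SCJ (median 2.48) and 1 of 4 in stomach (0.74). The 1 in stomach was Egr2, which is not particular to neural cells. It had a UMI in 26.1% of the cells of all other labels, at 44.4 CPM against 123 CPM in neural cells. Of the Schwann-like cells described above, 17 came from E19 GE-SCJ and none from E15 GE-SCJ or from stomach. In E19 GE-SCJ Mal was 835 CPM in those cells and 47.7 CPM (30.6 to 71.03) in the rest. The 42 cells of E15 GE-SCJ stood at 10.96 CPM (3.56 to 25.6), an interval below that of the E19 rest. Mbp was 231 CPM (191 to 277) in the E19 rest and 101 CPM (73.8 to 135) at E15. Both genes were thus also higher at E19 outside the Schwann-like cells, for Mal from 24 and 5 UMIs. Over all groups Mal was 135 CPM in all other labels, above the 85.7 CPM of neural cells. The part of free Mal RNA in these values was not tested. The transcription factor gene Cebpd (2.39 and 3.09), the RNA decay factor Zfp36 (2.44 and 2.32), the matricellular gene Ccn2 (2.81 and 1.74), AY036118 (2.11 and 1.85) and the collagens Col1a1 (3.17 and 2.33), Col3a1 (3.69 and 2.10) and Col1a2 (3.61 and 1.84) complete the 10 genes named as higher. All 3 measured fibroblast genes are among them, beside 5 of 7 and 4 of 8 immediate early genes that were higher. Among stomach cells with glia genes and fewer than 2 neuron genes, 15 at E19 and 10 at E15, Col1a1 (-0.58) and Col1a2 (-1.37) had the opposite sign.

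Division genes were counted over the same interval, with no test of the difference between regions. In stomach 10 of 17 measured cell cycle genes were lower at E19 (median -1.37), with Mki67 going from 217 to 29.5 CPM. In GE-SCJ 0 of 7 passed 2-fold in either direction (median -0.26), with Mki67 at 121 and 101 CPM. Cells called G1 were 111 of 202 at E15 (55.0%, 47.8 to 61.9), 98 of 145 at E19 (67.6%, 59.3 to 75.1) and 56 of 59 in pups (94.9%, 85.9 to 98.9), calls that depth can shift.

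Between E19 and pup, only stomach had 20 neural cells at both stages. There 54 of 857 genes were lower (6.3%) and 76 higher (8.87%). Cyclin D1, Ccnd1, went from 637 to 30.1 CPM (log2 ratio -3.99, -5.88 to -2.62). Sox11 (-2.12) and Sox4 (-1.97), SoxC factors of immature neurons, H2afz (-2.15), Ldha (-1.97), Hnrnpa1 (-1.95), Elavl4 (-1.80) and Hspd1 (-1.80) were also lower. Sox10, by contrast, was 276 CPM at E19 and 311 CPM in pups, and Hand2, an autonomic transcription factor, 597 and 572 CPM. The higher genes in pup stomach were Hbb-bs, Hba-a1 and Hba-a2, most of whose UMIs lay in the 2 hemoglobin-rich cells, the cytokine signalling inhibitor Socs3 (3.69), Zfp36 (3.43), the lipid receptors S1pr3 (3.26) and Lpar1 (2.90), Crip1 (3.21) and the matrix genes Dcn (3.05) and Col1a2 (2.79). Among cells with glia genes and fewer than 2 neuron genes, Hbb-bs had a log2 ratio of -0.05.

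Pups were also set against E15 in esophagus and stomach, a comparison added after the data were seen. In esophagus 340 of 1644 genes were lower (20.7%) and 189 higher (11.5%), and in stomach 345 of 1842 were lower (18.7%) and 172 higher (9.34%). Genes pass the 100-UMI filter mostly through the deeper E15 group, which favours lower calls. All 9 and all 13 measured neuron genes were lower, with medians of -3.67 and -3.41, or -2.26 and -2.59 when the 5 genes at 0 UMIs in each pup group were set to their bound. In all other labels the medians of the same genes were -2.16 and -2.33, close to those at the bound. Insm1 had 94 UMIs in E15 esophagus and 0 in pups, at least 3.88-fold lower, and 116 and 0 in stomach, at least 4.101-fold lower. Ret, the GDNF receptor, had 102 and 151 UMIs in 17 and 29 cells at E15 and 0 in pups, at least 4.21-fold and 5.34-fold lower, whereas its co-receptor Gfra1 was 192 and 170 CPM at E15 and 787 and 822 CPM in pups. Thus the 2 genes of 1 receptor complex had opposite signs. Tubb3, Tubb2b, Elavl2 and the division genes Hist1h2ap, Cenpf, Top2a, Pclaf and Hist1h2ae were lower in both regions, each with at most 2 UMIs in a pup group. Of the cell cycle list 8 of 9 and 11 of 11 measured genes were lower, with medians of -2.73 and -2.45, against -1.09 and -2.10 in all other labels.

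Zfp36 ranked first among the genes named as higher in pups, by the smaller of its ratios in the 2 regions. It was 90.2 CPM at E15 and 2400 CPM in pup esophagus (log2 ratio 4.72, 4.34 to 5.11) and 45.7 and 2507 CPM in stomach (5.75, 5.28 to 6.25). Socs3 (3.95 and 4.98), Btg2 (3.52 and 3.87), Dusp1 (4.05 and 3.37) and Junb (3.09 and 3.18), of which Junb is on the immediate early list, were named as well, with Crip1, Gsn, S1pr3, Dtna and Col1a1. Of the immediate early and heat shock list 10 of 10 measured genes were higher in esophagus and 5 of 7 in stomach (medians 2.28 and 1.97), and in all other labels the same medians were 1.25 and 0.31. Dissociation of tissue is known to induce these genes, and the part it plays here was not tested. Col1a1 was 3168 CPM in pup esophagus, in 22 of 24 cells, and 2577 CPM in pup stomach, where its 257 UMIs lay in 6 of 20 cells. Of the glia list 4 of 8 measured genes were higher and 1 lower in pup esophagus (median 1.08), and 4 of 9 higher and none lower in pup stomach (0.81, or 0.03 among the 10 and 10 cells with fewer than 2 neuron genes). Apoe was 5062, 6498 and 5325 CPM in pup esophagus, GE-SCJ and stomach, while immune cells of those groups held 12199, 19800 and 17205 CPM. Entpd2 stood at 45.7 and 25.5 CPM in E15 esophagus and stomach and at 496 and 632 CPM in pups, with 1.86 CPM in immune cells as a whole.

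**Figure D4:**
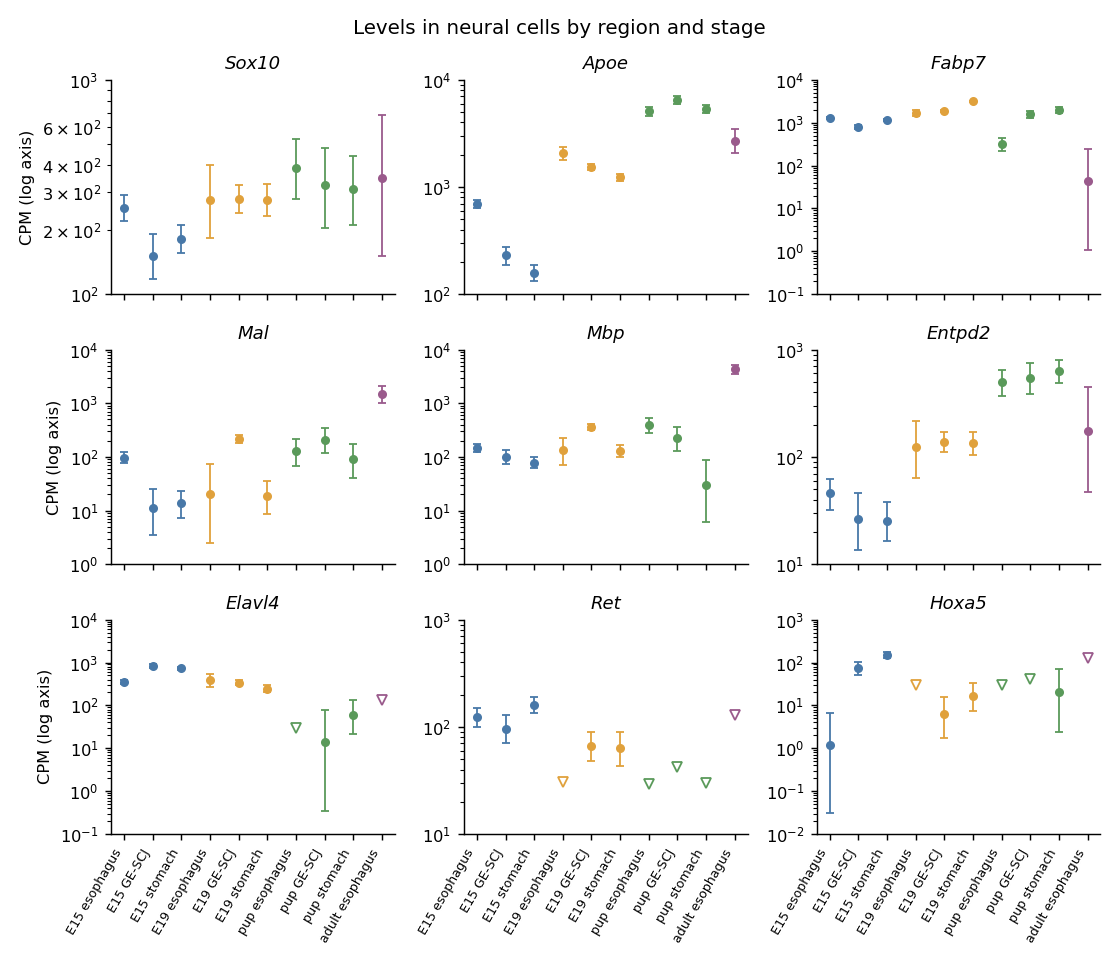
Summed levels of 9 genes in neural cells (CPM, log axes) by region and stage, with points for the summed value and lines for exact 95% Poisson intervals of counting error, where open triangles mark 0 UMIs at the level that 3 UMIs would give. Apoe is higher at E19 than at E15 and higher again in pups in each region, Elavl4 and Ret are at 0 or at most 6 UMIs in each pup group, and Sox10 lies between 151 and 389 CPM. The 1 neural cell of adult GE-SCJ is not drawn.

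Regions were compared within a stage to ask whether neural cells differ along the foregut. Between E15 esophagus and E15 stomach, 72 of 3283 genes were at least 2-fold higher in esophagus (2.19%) and 51 lower (1.55%). In pups 38 of 279 were higher (13.6%) and 7 lower (2.51%). Of the Schwann and myelin list 2 of 5 measured genes were higher in esophagus at E15 (median 0.92) and 1 of 2 in pups, with none lower. Of the glia list 4 of 10 were higher at E15 (median 0.46) and none lower, and in pups 2 of 7 were higher and 1 lower. The fibroblast list moved with these at E15, at 1801 against 308 CPM, with 3 of 3 measured genes higher (median 2.66, other labels 1.71), and its part was not tested. Mal, below the 100-UMI filter, was 97.4 CPM in E15 esophagus and 13.8 CPM in stomach (log2 ratio 2.73, 1.90 to 3.66). Its UMIs lay mainly in the Schwann-like cells, where 15 of the 88 cells held 73 of 81. The other 73 esophagus cells stood at 11.7 CPM (5.03 to 22.96), an interval that overlaps that of stomach (7.36 to 23.6). Mbp was 148 and 77.6 CPM at E15 (0.92, 0.50 to 1.36) and 389 and 30.1 CPM in pups, from 40 and 3 UMIs. Of the 123 Mbp UMIs of E15 esophagus 56 lay in the 15 Schwann-like cells. The other 73 cells of E15 esophagus stood at 97.6 CPM (75.6 to 124), an interval that overlaps that of stomach (60.9 to 97.6). In pup esophagus, by contrast, 30 of the 40 Mbp UMIs lay outside the 4 Schwann-like cells. Those 20 other cells stood at 335 CPM (226 to 478), an interval above that of pup stomach, whose upper bound was 87.9 CPM. Alcam and the matrix genes Col11a1, Matn2, Postn, Col3a1 and Col4a1, with Dbi and Egr3, were also higher at both stages, by log2 ratios from 0.96 to 2.66. Col3a1 (1.54 and 2.52) and Matn2 (2.02 and 2.95) were higher in esophagus among all other labels as well.

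Hox genes, which pattern the body axis, were compared by region. The list summed to 154, 533 and 864 CPM in esophagus, GE-SCJ and stomach at E15, and to 409, 281 and 397 CPM at E19, where esophagus (11 cells) was not below stomach. In pups it summed to 48.6, 196 and 481 CPM, from 24, 15 and 20 cells of the same regions. At E15, 5 of the 15 listed passed the 100-UMI filter, 4 of them through the stomach cells alone, so that being lower in esophagus was in part set by the filter and the 5 are described one by one. Among the 21 esophagus and 10 stomach cells with glia genes and fewer than 2 neuron genes, each of the 5 had at most 6 UMIs in a region, too few for a ratio. Hoxb5 (chr11:96303336-96306121, plus strand) had 133 UMIs in 25 of 72 stomach cells and 0 in the 88 esophagus cells, at least 39.2-fold lower, and Hoxa5 (chr6:52201754-52204587, minus strand) had 141 UMIs in 26 cells and 1 UMI, a log2 ratio of -5.97 (-9.03 to -4.09). GE-SCJ lay between, with 30.7 CPM of Hoxb5 and 74.5 CPM of Hoxa5. Hoxb3 (-2.50), Hoxb4 (-1.88) and Hoxd3 (-1.22), more anterior genes of the clusters, were lower by less. Most of the Hoxa5 and Hoxb5 RNA lay in the neuron-like subcluster. Within its E15 cells Hoxa5 was 404 CPM (336 to 481) in 17 of 21 stomach cells, 191 CPM (131 to 270) in 7 of 13 GE-SCJ cells and 0 UMIs in 8 esophagus cells, which allows up to 28.5 CPM. Hoxb5 was 377 CPM (312 to 453), 65.6 CPM (32.8 to 117) and 0 UMIs in the same cells. Elavl4, as a measure of how neuronal they were, stood at 2122, 2058 and 1921 CPM. Outside the subcluster Hoxa5 was 26.9 CPM (15.6 to 43.0) in stomach, 6.93 CPM (0.840 to 25.04) in GE-SCJ and 1.38 CPM (0.0349 to 7.67) in esophagus, where the GE-SCJ interval overlaps both others. In all other labels of E15, Hoxa5 was highest in GE-SCJ, at 95.8 CPM, with 36.2 CPM in stomach and 15.03 CPM in esophagus.

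The neuron list was lower in E15 esophagus in 10 of 15 measured genes (median -1.07) and higher in none. Stmn2 was 196 CPM in 12 of 88 esophagus cells and 724 CPM in 22 of 72 stomach cells. Peptide genes were sparser still: all 116 UMIs of Tac1 at E15 lay in 4 stomach cells, 70 of the 82 UMIs of Gal in 5 stomach cells and all 61 of Cck in 4. The serotonin receptor subunit Htr3a had 28 UMIs in 13 esophagus cells and none in the other regions of E15. Genes lower in esophagus at both stages had small ratios, from -0.23 to -1.36, and included Tgfb2 (-0.72 and -0.71), Ednrb (-0.29 and -0.82), Tuba1a, Plce1, Tubb5, Snrpg, Ywhae, Npm1 and Ywhaz. Among E15 cells with glia genes and fewer than 2 neuron genes, Ywhae had the opposite sign (0.0453). In pups 5 of 9 measured immediate early genes were higher in esophagus than in stomach (median 1.07, other labels 0.75).

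GE-SCJ was set against stomach at E15, with 5 of 2550 genes higher (0.196%) and 21 lower (0.824%), and at E19, with 56 of 1943 higher (2.88%) and 10 lower (0.515%). Of the neuron list 0 of 15 measured genes passed 2-fold at E15 in either direction, while of the cell cycle list 3 of 17 (Top2a, Cdk1 and Mcm6) were lower in GE-SCJ and none higher (median -0.68, other labels -0.01). Schwann and myelin genes were higher in GE-SCJ at E19 in 4 of 6 (median 1.35), among them Mal at 218 against 18.99 CPM, and 116 of the 140 Mal UMIs lay in 17 of 74 cells. The fibroblast list moved with it, at 3048 against 1359 CPM, with 2 of 3 measured genes higher (median 1.40, other labels 0.34), and its part was not tested. Lgals1 (0.67 and 1.53), the growth-cone protein Gap43 (0.57 and 1.38), Tmod2, Selenos, Npdc1, Lmna, Far1, Tax1bp3 and Ctnnd1 were higher in GE-SCJ at both stages. Fabp7, a gene of radial and progenitor glia, was lower in GE-SCJ at both stages, at 809 against 1167 CPM (-0.53, -0.70 to -0.35) and 1852 against 3111 CPM (-0.75, -0.86 to -0.64). The adhesion gene Chl1 (-0.96 and -0.96), Tshz2, Pde5a, Mest, Plcb1, Peg3, Samd5, Slitrk6 and the growth factor gene Ptn were lower too. Among cells with glia genes and fewer than 2 neuron genes, the sign turned for Tshz2 at both stages (0.20 and 0.32), for Tmod2 (-0.14), Pde5a (0.43) and Samd5 (1.05) at E15 and for Slitrk6 (0.17) at E19. All 4 measured erythroid genes were higher in E19 GE-SCJ, where 2 cells held most of their UMIs. Without the 2 richest cells of each group the erythroid list was still 1482 CPM there, against 369 CPM in E19 stomach.

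**Figure D5:**
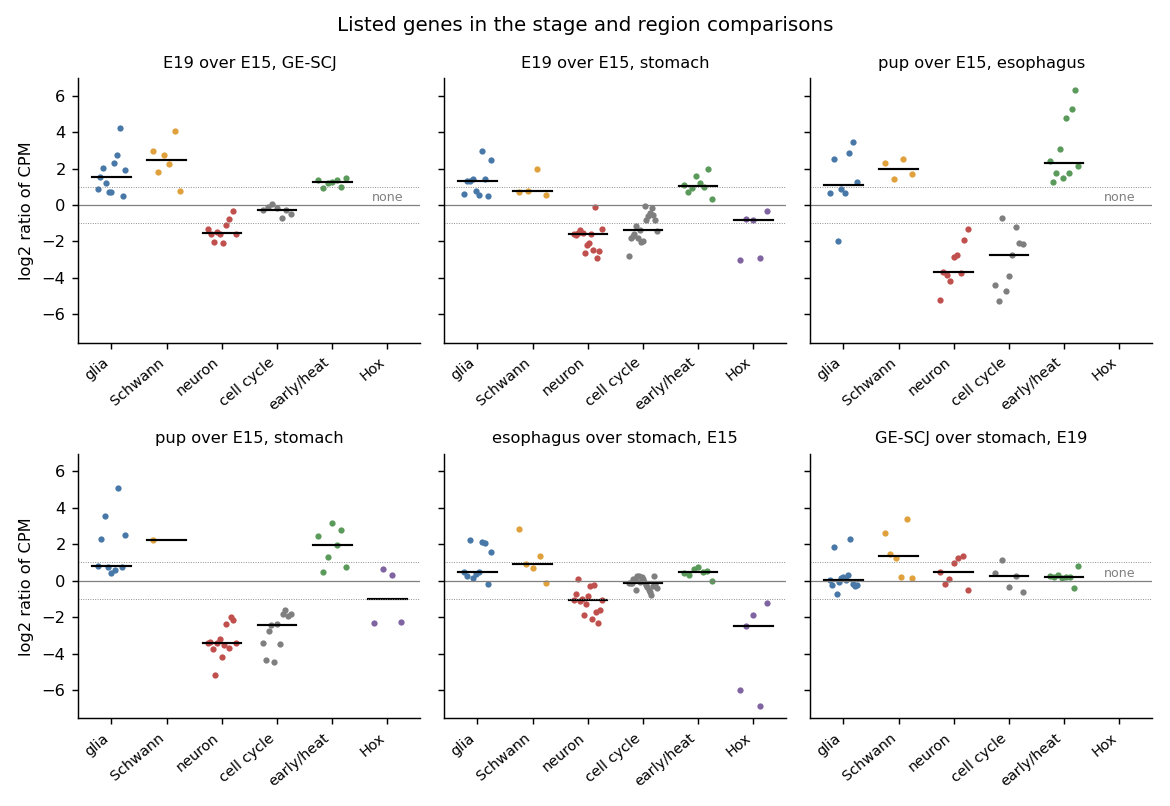
Log2 ratios of CPM (vertical axis) of the measured genes of 6 lists in 6 comparisons of neural cells, 1 point per gene, bars at the list median and dotted lines at 2-fold. Neuron genes are below 0 at E19 and in pups (medians -1.54 to -3.67), glia, Schwann and immediate early genes are mostly above 0, and the 5 Hox genes drawn for E15 esophagus against stomach, 4 of which passed the filter through stomach alone, are below 0.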

How the data were processed

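Cells of all regions and stages were sequenced in 1 pooled run, with a second library for the sample tags that shares its cell barcodes by design. The deposited matrix holds UMI counts made by the authors with Cell Ranger 6.1.1 (named in the submitters' processing notes) on the 10x Genomics mm10 (GRCm38) reference. It has 19550 genes, 7808 cells and 107865155 UMIs. The authors removed barcodes with extreme gene and UMI numbers or a high percent of mitochondrial UMIs, and clustered and labelled the cells. The cell table deposited by the authors gives label, tag, cell cycle phase and mitochondrial percent (0.0632 to 10.7% in neural cells, with 761 to 34768 UMIs per cell). No further doublet caller was run, and 0 barcodes were duplicated. Every per-sample column was mapped.

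UMIs were summed over the neural cells of a region and stage and scaled to CPM. Ratios used a pseudocount of 1 UMI, genes with at least 100 UMIs over both groups, and 2-fold as the limit, and a listed gene outside the filter needed 20 UMIs. A gene can pass through 1 group alone, so list counts are descriptions. Levels of different genes are not scaled by length. Intervals were exact (Poisson or Clopper-Pearson, 95%), and a count of 0 allows 3 UMIs. Groups needed 20 neural cells. Comparisons share groups, such as E15 stomach, and so are not independent. No test was run.

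The 20 neural genes named were those with the highest ratio among genes with at least 200 UMIs, seen in at least 10% of neural cells and with a log2 ratio above 0 in all 7 groups, pseudocount included. For each comparison, genes were ranked up and down by the smaller of their ratios over its regions or stages, and the first 10 each way were named, with 10 leading genes with at least 50 UMIs for each subcluster. The cells and the 310 genes in 24 lists (299 in the matrix) were chosen with earlier results of these data known. Genes from the lists are named beyond these rules, and some genes that met them are not reported here.

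Subclusters came from Leiden clustering (10000 UMIs per cell, 1500 genes, 20 components, 15 neighbours, resolution 0.5). Neural cells were thinned to 2000 UMIs for shares (seed 1). Scripts were tested on simulated data, with scanpy 1.11.5, python-igraph 0.11.9, pandas 2.3.3, numpy 2.4.6, matplotlib 3.10.9, scipy 1.17.1 and scikit-learn 1.9.0 under Python 3.11.15.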

Additional observations from a re-analysis of the deposited data

Results flagged for a closer look

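The 12 neural cells of adult esophagus entered no comparison, because the group held fewer than 20 cells, and 2 myelin genes stood there far above the immune cells of the same sample. Mbp was 4299.11 CPM from 99 UMIs in 12 cells (3494 to 5234), against 84.0 CPM in immune cells. Mal was 1476.46 CPM from 34 UMIs, against 42.0 CPM. Immune cells are a low background for Mal. Over all groups Mal was 135 CPM in all other labels and 85.7 CPM in neural cells, while Mbp was 22.7 and 189 CPM. Of these cells 10 were in the Schwann-like subcluster. With 23028 UMIs and no replicate, the differences from other stages were not tested.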

How the results depend on the processing

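Over 426 results, 2002 alternative values were computed. Those without subcluster 7, the limit of 8 neuron genes, the glia-only cells in the region comparisons and the pup over E15 comparisons were chosen after seeing the data. Of the values for shares and counts 84 kept within the limit and 28 moved. For 403 gene ratios, 1588 of the alternative values kept, 286 moved and 16 reversed. The settings differed widely. In the cells with at least 2 glia genes and fewer than 2 neuron genes, 135 of 246 values moved and 13 reversed, so most did not keep. With the mean of each cell's CPM 41 of 403 moved, and without the 1% of cells richest in the gene 68 of 401.

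Counting every cell with UMIs of at least 3 glia or neuron genes, whatever its label, gave 44.6% in place of 5.37%. Cells with glia genes were 89.7% at 3 genes and 79.1% after thinning, against 93.8%, and cells with neuron genes 52.5% at 3 genes, 37.6% after thinning and 18.6% at 8 genes, against 73.3%. Resolution 1.0 gave 11 subclusters in place of 7, and membership moved too, with an adjusted Rand index (1 for identical) of 0.93 at resolution 0.3, 0.70 at 1.0, 0.68 with 10 components and 0.65 with 3000 genes. The cells of subcluster 1, 120 in all, split most, with 65 together at resolution 1.0, 72 with 10 components and 83 with 3000 genes, and of the 64 of subcluster 2, 42 stayed together at resolution 1.0 and 38 with 3000 genes. Of the 55 cells of subcluster 3, 54 or 55 stayed together under these settings, joined by others to 76 cells with 3000 genes. Of the 49 of subcluster 6, 43 or 49 stayed together, and they merged with subcluster 7 at resolution 0.3 (78 cells) and with 3000 genes (79 cells).

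Cells with at least 2 glia genes and fewer than 2 neuron genes number 6 to 21 a group, so fewer genes reach 100 UMIs by construction. In these cells the genes higher and lower at E19 than at E15 were 22 and 4 in GE-SCJ and 10 and 8 in stomach, and in pup over E19 stomach 17 and 9. Pup over E15 gave 37 and 45 in esophagus and 22 and 19 in stomach. Esophagus over stomach gave 8 and 3 at E15 and 14 and 3 in pups, and GE-SCJ over stomach 2 and 5 at E15 and 15 and 1 at E19. Reversed log2 ratios in these cells were, for E19 over E15, Sox11 0.00994 and Krt8 -0.0605 in GE-SCJ and Col1a1 -0.58 and Col1a2 -1.37 in stomach. For pup over E19 stomach Hbb-bs was -0.0460, and for esophagus over stomach Ywhae was 0.0453 at E15 and Hbb-bs 0.28 in pups. For GE-SCJ over stomach at E15 they were Tmod2 -0.14, Tshz2 0.20, Pde5a 0.43 and Samd5 1.05 (12 UMIs in each group), and at E19 Tshz2 0.32 and Slitrk6 0.17.

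In pups the genes lower in esophagus than in stomach, 7 in all, were 11 with the mean of each cell's CPM and 4 once the 1% of cells richest in each gene were left out. Without subcluster 7 the genes lower in E19 GE-SCJ than in stomach were 3, not 10. Ghrl reversed for pup over E19 stomach without the top 1% of cells (0.21) and without subcluster 7 (0.41), and for GE-SCJ over stomach at E19 without subcluster 7 (0.0333). Apart from those settings, the cause was not tested.

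No paired analysis was possible because each region and stage is 1 pooled sample, the groups share no replicate numbers, and no result comes from a test. Depth limits E19 esophagus, pups and adults most, where a neural group held 6862 to 102914 UMIs.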

Other observations

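Slc18a2, the vesicular monoamine transporter, stood at 89.2 CPM in neural cells, with a UMI in 167 of them, against 3.37 CPM in all other labels. Th, the tyrosine hydroxylase of catecholamine synthesis, had a UMI in 2 neural cells (0.534 CPM). Slc18a2 was 54.1, 52.6 and 95.7 CPM at E15 and 204, 252 and 271 CPM in pups, in esophagus, GE-SCJ and stomach.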
